A study of Arabidopsis thaliana with 6 samples.

Results

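Purine permeases are small membrane proteins that carry adenine and related compounds into cells, and several of them also carry cytokinins, the adenine-derived hormones that promote cell division and delay ageing in shoots. By taking up cytokinin, such a carrier can lower the amount that reaches receptors facing the outside of the cell, and it can also move the hormone or its precursors between tissues. The family has many members in Arabidopsis thaliana, and some lie next to each other in the genome.

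The 10 genes described here are PUP7 (AT4G18197), AT4G18205 and the purine permease genes beside them, PUP6 (AT4G18190), PUP8 (AT4G18195), PUP10 (AT4G18210) and AT4G18220, together with PUP1 (AT1G28230), PUP11 (AT1G44750), PUP14 (AT1G19770) and PUP18 (AT1G57990), which lie elsewhere. They were chosen by locus code because 2 neighbours in the cluster had been seen to rise in the ERF6-overexpressing line, so the difference between the lines was itself used in the choice. Folds of these 10 genes, and which of them lie past the threshold used for all rows, are therefore given only as a description, with no p-value. Each of the 10 loci had 1 row among the 30237 rows of the deposited table, and none was lost to a filter, because no filter on level was used.

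Arrays were made of ERF6:IOE, described by the submitters as a strong ERF6 overexpressor, and of GFP:IOE, the control line. ERF6 encodes an AP2/ERF transcription factor that acts in stress responses and leaf growth. There were 3 arrays per line, called biological repeats, from leaf 3 of Col-0 seedlings at an age labelled 9 DAS. All seedlings of both lines had been on 5 µM dexamethasone for 4 h, and each construct was represented by 1 line. Without arrays from before induction, a difference that predates it cannot be told apart from one that follows it. The sources used here name no promoter for the constructs.

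The values are log2 expression from RMA, a procedure that corrects background, gives all arrays the same distribution and combines a gene's probes into 1 value. They compare 1 gene between arrays, not one gene with another, since probes differ in brightness. ERF6 itself read 9.99, 9.97 and 10.4 on the ERF6:IOE arrays and 6.89, 7.38 and 7.55 on the GFP:IOE arrays (log2 fold 2.85, SE 0.20, limma adjusted p 0.00107). Array medians lay between 4.85 and 4.90, and no pair of arrays held identical values. The leaf markers RBCS1A, RCA and PSBO1 were bright on all arrays (11.6 to 14.2), and 3 other leaf markers had no row. Of 5 measured root markers, PYK10 was bright (9.17 to 9.80), and the other 4 read at most 5.68. In a leaf sample, fewer cells that use a gene and less RNA per cell cannot be told apart.

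In the cluster, AT4G18205 differed most between the lines. It read 7.64, 7.62 and 7.76 on the ERF6:IOE arrays, against 4.25, 4.85 and 4.61 on the GFP:IOE arrays. The ERF6:IOE arrays lay close together (SD 0.08) and far above the more scattered GFP:IOE arrays (SD 0.30). The log2 fold was 3.10 (SE 0.16), or 8.57-fold, the 16th largest upward difference of all rows. Within each repeat number the difference was 3.39, 2.76 and 3.15.

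PUP7, its neighbour in locus order, had 7.17, 7.35 and 7.56 on the ERF6:IOE arrays and 5.77, 5.94 and 6.07 on the GFP:IOE arrays. The lines were separated by over 1 log2 unit on every array, and the log2 fold was 1.43 (SE 0.14, 2.70-fold). The difference was nearly the same within each repeat number, at 1.40, 1.41 and 1.49. Its log2 fold was thus smaller than that of AT4G18205, and its differences within a repeat number were more even. The main fit does not pair arrays by repeat number, and there AT4G18205 had a similar SE (0.16). Among the ERF6:IOE arrays PUP7 was the more spread of the pair (SD 0.19 against 0.08).

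AT4G18220, at the far end of the cluster, had 5.41, 5.71 and 6.12 in ERF6:IOE and 4.59, 4.12 and 4.36 in GFP:IOE. Its lines did not overlap, but the repeats were less even than for PUP7, with differences of 0.83, 1.59 and 1.76. The log2 fold was 1.39 (SE 0.20, 2.63-fold). PUP10, between AT4G18205 and AT4G18220, had 4.95, 4.66 and 4.73 in ERF6:IOE against 4.04, 3.85 and 4.19 in GFP:IOE. All of its ERF6:IOE arrays were above all of its GFP:IOE arrays, by a log2 fold of 0.75 (SE 0.13, 1.68-fold). The PUP10 values in GFP:IOE were near the lower quartile of their arrays (4.03 to 4.08), 1 of them below it, so this fold is approximate.

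The other end of the cluster differed less. PUP8 had 4.11, 3.88 and 4.05 in ERF6:IOE and 3.67, 3.68 and 3.82 in GFP:IOE, which gave a log2 fold of 0.29 (SE 0.11). The lines did not overlap, but the GFP:IOE values were below the lower quartile of their arrays (4.03 to 4.08), where RMA values are compressed and detection was not assessed. PUP6 had 4.46, 4.52 and 4.29 in ERF6:IOE and 4.46, 4.44 and 4.38 in GFP:IOE. The PUP6 arrays of both lines lay over each other, with a log2 fold of 0.00 (SE 0.10, 95% interval -0.24 to 0.24).

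**Figure D1:**
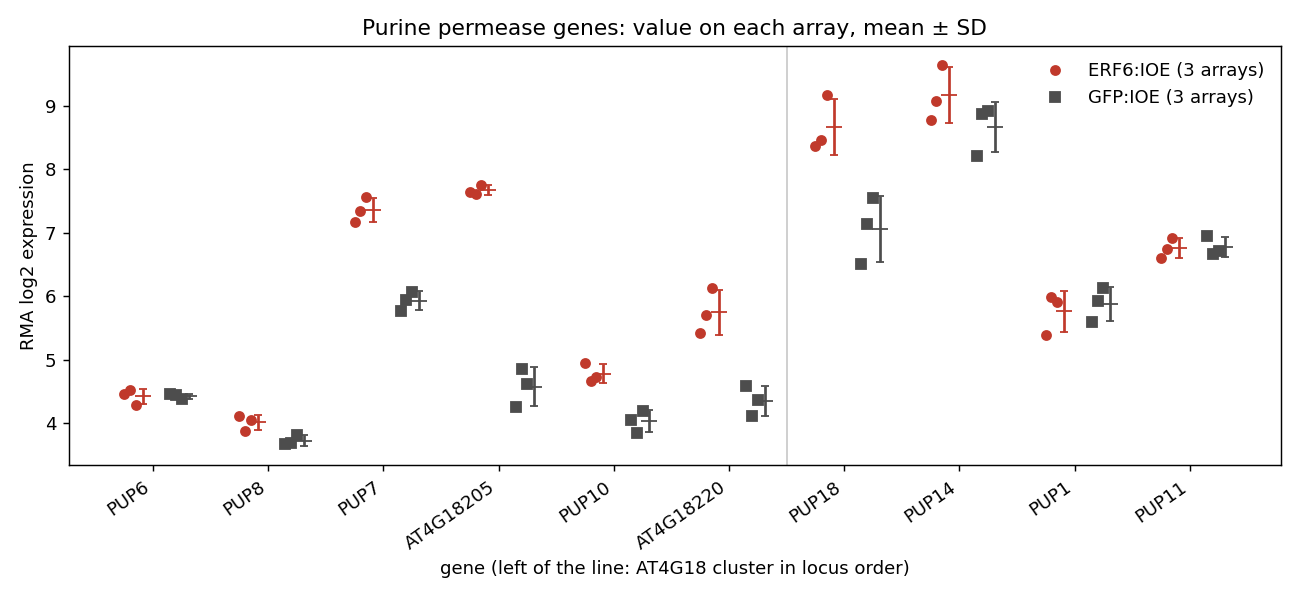
RMA log2 expression of the 10 purine permease genes on each array, ERF6:IOE as red circles and GFP:IOE as grey squares, with the mean and SD of 3 arrays beside them. The lines are widest apart for AT4G18205 (means 7.67 and 4.57) and lie over each other for PUP6, PUP1 and PUP11, and heights are not comparable between genes.

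Among the genes outside the cluster, PUP18 stood apart from the others. It had 8.37, 8.46 and 9.17 in ERF6:IOE and 6.51, 7.13 and 7.55 in GFP:IOE. The lowest ERF6:IOE array was above the highest GFP:IOE array, although each line was widely spread (SD 0.44 in ERF6:IOE and 0.52 in GFP:IOE). Its log2 fold came to 1.60 (SE 0.30, 3.04-fold), larger in size than that of PUP7 but with a wider error. In both lines the repeat 1 array was the lowest and the repeat 3 array the highest. The differences within a repeat number were 1.86, 1.33 and 1.62, and the SE was 0.13 when repeat number entered the model as a block.

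PUP14, a plasma membrane importer of cytokinin known to restrict cytokinin signalling in shoots and embryos, had the same order of arrays within both lines. It read 8.78, 9.08 and 9.65 in ERF6:IOE and 8.21, 8.87 and 8.92 in GFP:IOE. The lines overlapped, and the log2 fold of 0.50 had an SE of 0.27 (0.13 with repeat as a block). The 95% interval ran from -0.12 to 1.12.

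PUP1, a carrier of adenine that also takes up vitamin B6 compounds, had 5.39, 5.99 and 5.91 in ERF6:IOE against 5.59, 5.92 and 6.13 in GFP:IOE. Its lines overlapped, with a log2 fold of -0.12 (SE 0.20). PUP11 had 6.61, 6.75 and 6.93 in ERF6:IOE and 6.96, 6.66 and 6.72 in GFP:IOE. These also overlapped, and the log2 fold was -0.02 (SE 0.13, 95% interval -0.32 to 0.28).

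Of the 10 genes, 3 were past the threshold used across all rows (limma adjusted p under 0.05), all higher in ERF6:IOE, where 0.698% of all rows were called higher, and 0 were past it in the lower direction, where 0.0265% of all rows were. They were PUP7, AT4G18205 and AT4G18220, and since the choice used this contrast nothing is read from the count. The lines did not overlap for 6 of the 10, all higher, against 6.93% of all rows, and 5 of these 6 lie in the cluster. The median log2 fold was 0.63 for the 10 genes and -0.02 for all rows. Membership of these 3 varied with the fit. With repeat as a block PUP18 took the place of AT4G18220, and after dropping any 1 repeat from both lines only AT4G18205 was past the threshold. AT4G18220 was also not past it without ERF6:IOE replicate 2 or 3, or without any 1 of the GFP:IOE replicates.

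The remaining family members are those left after the 10 genes had been chosen with earlier results of these data known. They are therefore not an independent comparison set. All 12 other purine permease genes of a list drawn up from the family were measured, and none passed in limma over all rows, with a lowest adjusted p of 0.602. At an unadjusted p under 0.05 there was 1, PUP17, against 8.02% of all rows. Their median log2 fold was 0.05, and their log2 folds lay between -0.32 (PUP12, SE 0.21) and 0.32 (PUP17, SE 0.13). PUP17 and AT1G57980 directly precede PUP18 in the name table's gene order.

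PUP17 read 4.99, 5.14 and 5.43 in ERF6:IOE and 4.79, 4.82 and 4.98 in GFP:IOE, just without overlap. AT1G57980 had a log2 fold of 0.24 (SE 0.26) with overlapping lines. PUP3, the neighbour of PUP1, had a log2 fold of -0.07 (SE 0.15). The lines did not overlap for PUP15 either, which was lower in ERF6:IOE (log2 fold -0.19, SE 0.10).

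The other members of the family varied little. PUP2, a carrier of adenine and cytokinin found in leaf phloem, had a log2 fold of 0.06 (SE 0.12). The values were 0.07 for PUP4, 0.02 for PUP5, 0.11 for PUP13, -0.22 for PUP16, 0.04 for PUP19 and 0.13 for PUP20. For the 12 genes the 95% intervals reached up to 0.86 (AT1G57980) and down to -0.80 (PUP12), so a lack of difference was not shown.

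**Figure D2:**
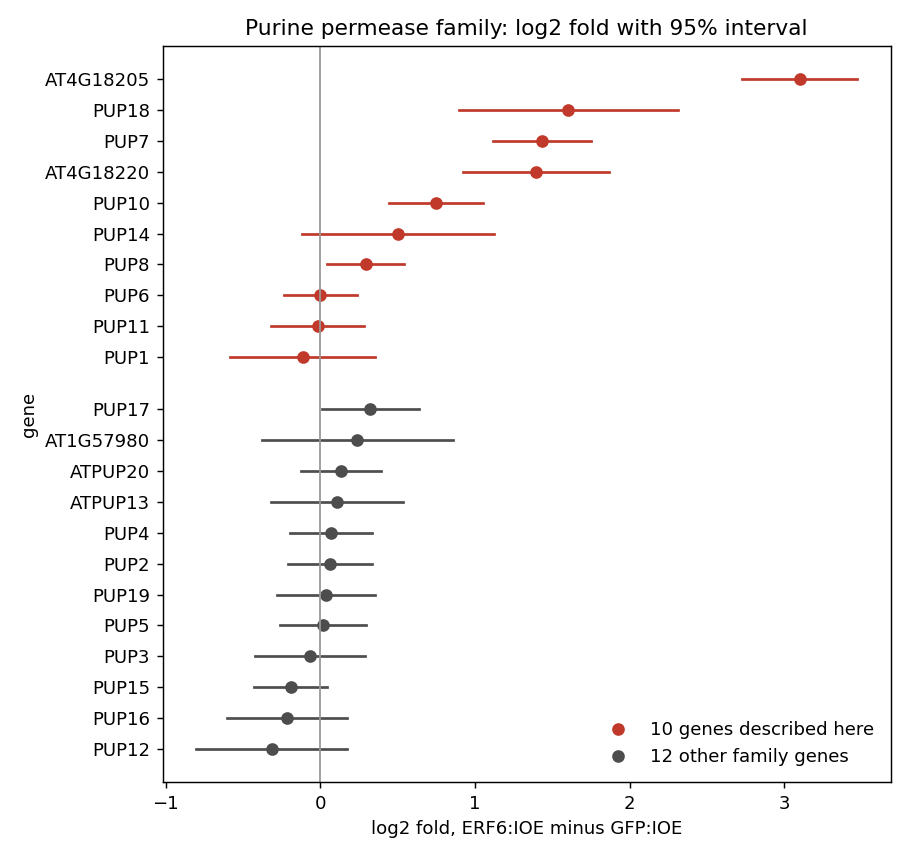
Log2 fold (ERF6:IOE minus GFP:IOE) of 22 purine permease genes as points with 95% intervals from limma, the 10 genes described here in red above the 12 other family members in grey. AT4G18205 is farthest to the right at 3.10, and the 12 others lie between -0.32 and 0.32. The difference between the lines was used in choosing the 10, and the 12 others are what that choice left.

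The order of the cluster in the genome was taken from the name table of a later genome build, so no positions are given. The 6 cluster genes follow each other as PUP6, PUP8, PUP7, AT4G18205, PUP10 and AT4G18220. Between them the table lists 2 further protein-coding loci, AT4G18203 and AT4G18215, which had no row on the array. The log2 folds in that order were 0.00, 0.29, 1.43, 3.10, 0.75 and 1.39. Since the cluster was chosen for neighbours that rose, nothing is read from this order. PUP10 had a smaller value than the genes on either side of it, and PUP18, with 1.60, lies outside the cluster. These genes are close relatives, and probes that match more than 1 of them could not be told apart in these values.

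The 5 measured genes on each side of the cluster were tested in the same fit. Of these 10, 1 passed, against 0.724% of all rows in either direction. It was WRKY28, a defence-related transcription factor gene, separated from PUP6 by AT4G18180. WRKY28 read 5.01, 4.97 and 4.70 in ERF6:IOE and 3.83, 3.56 and 3.82 in GFP:IOE, with no overlap (log2 fold 1.15, SE 0.13, limma adjusted p 0.0114). Its adjusted p in limma was 0.051 with repeat as a block, where it missed the threshold. It also missed it without ERF6:IOE replicate 1 or 2, without GFP:IOE replicate 2 and after dropping any 1 repeat from both lines, with limma adjusted p-values reaching 0.211. All GFP:IOE values of WRKY28 were below the lower quartile of their arrays, so its fold is approximate.

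The genes that touch the cluster on either side did not pass. AT4G18180, before PUP6, had a log2 fold of -0.10 (SE 0.14), and AT4G18230, after AT4G18220, of -0.06 (SE 0.14). SS4, a starch synthase gene, had -0.11 (SE 0.09). Farther on, AT4G18250 had 4.83, 4.50 and 5.01 in ERF6:IOE and 3.99, 3.61 and 3.97 in GFP:IOE. This gave a log2 fold of 0.92 (SE 0.17) that did not pass in limma (adjusted p 0.0765) and did so with repeat as a block (0.0446). All of its GFP:IOE values were also below the lower quartile, and its fold is approximate too. The lines did not overlap for 7 of the 10 flanking genes, in either direction, where 13.5% of all rows did not. The remaining flanking genes had log2 folds of 0.45 (SSP4b), 0.20 (the potassium channel gene KCO6), 0.12 (AT4G18260), -0.04 (AT4G18150) and -0.28 (TRANS11).

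**Figure D3:**
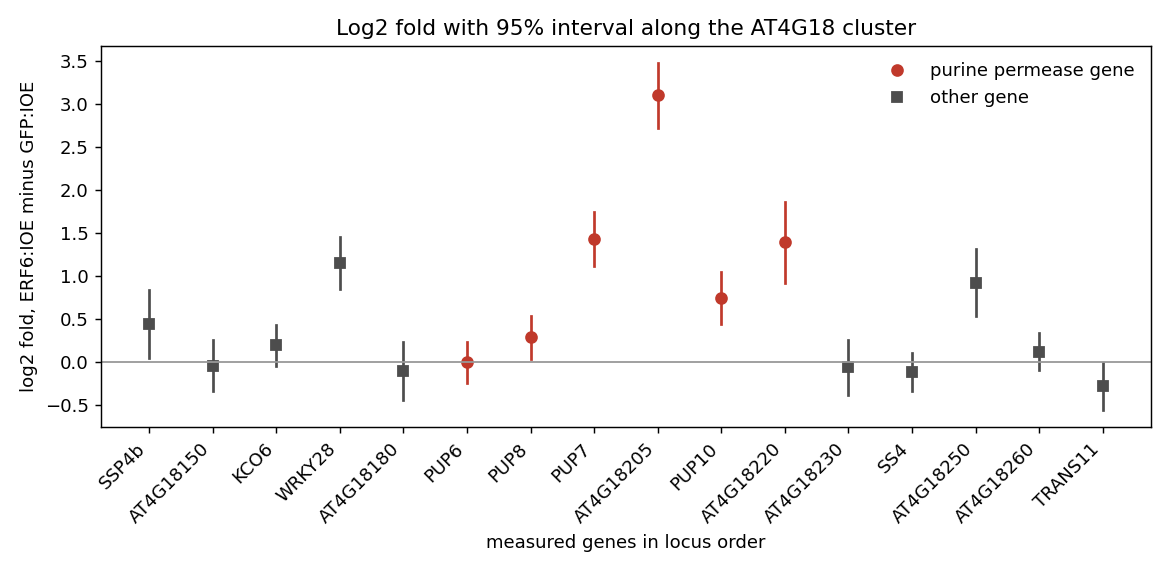
Log2 fold (ERF6:IOE minus GFP:IOE) with 95% intervals from limma for the measured genes in locus order, the 6 purine permease genes as red circles and 5 flanking genes on each side as grey squares. The largest value is that of AT4G18205 (3.10), and the genes touching the cluster lie at -0.10 and -0.06. The flanking genes run from -0.28 (TRANS11) to 1.15 (WRKY28).

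Called genes that are neighbours occurred elsewhere too. Of 211 loci called higher, among 29920 measured, 17 lay in 8 runs of at least 2 measured loci that follow each other in locus order. The number of runs to expect from the share called was not worked out, so nothing is read from this count. Whether probes shared between close relatives add to such runs was not tested. PUP7 and AT4G18205 formed 1 of these runs, and the longest, of 3 loci, ran from IGMT1 to IGMT4. Another held LOG5, a cytokinin-activating gene described further on, and LHT7.

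The profiles of AT4G18205 and PUP18 over the 6 arrays were compared with that of every row outside the chosen purine permease genes. The measure was the distance between values centred on each row's mean. AT4G18205 and PUP18 had the largest absolute log2 folds of the chosen genes, so the contrast was used in picking them. Whether another chosen gene lay closer was not tested. The row closest to AT4G18205 by this distance was ERF6, with a root mean square difference of 0.20 log2 units. Next came AT1G78850 (0.24), a lectin gene, and DJ1A (0.28). The order depends on the measure, since by Pearson correlation AT1G78850 (0.998) was nearer to AT4G18205 than ERF6 (0.994) was. For PUP18 the closest rows were AR781 (0.13), EXO70H7 (0.18), a gene for an exocyst subunit, and RHA1B (0.18), a RING finger gene. These likenesses rest on 6 arrays in 2 lines, and all 6 rows had log2 folds of 1.43 to 3.53, so the difference between the lines makes up most of each profile.

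Genes of cytokinin metabolism and response were examined because several purine permeases carry cytokinins. These lists and the other gene lists below were drawn up with earlier results of these data known. Their calls and shares are therefore not independent tests. Of 50 measured genes in 4 cytokinin lists, 2 rose and none fell, against 0.698% and 0.0265% of all rows. AHP6 (HP6 in the name table), a pseudo-phosphotransfer protein that inhibits cytokinin signalling, had 6.37, 5.49 and 5.68 in ERF6:IOE against 3.47, 3.63 and 3.91 in GFP:IOE. All ERF6:IOE arrays were above all GFP:IOE arrays, and the log2 fold of 2.18 (SE 0.24) had a limma adjusted p of 0.00976. The GFP:IOE values were below the lower quartile of their arrays, so the 4.52-fold difference is approximate. The call was lost with repeat as a block (adjusted p 0.051 in limma), without GFP:IOE replicate 1 or 2, and after dropping repeat 2 or 3 from both lines, with limma adjusted p-values reaching 0.102.

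LOG5, an enzyme gene that releases active cytokinin from its nucleotide, had 4.79, 4.67 and 4.88 in ERF6:IOE and 3.89, 3.62 and 3.90 in GFP:IOE. The lines did not overlap, and the log2 fold of 0.97 (SE 0.12) had an adjusted p of 0.0155 in limma. Its GFP:IOE values too were below the lower quartile. The call was lost without any 1 of the ERF6:IOE replicates, without GFP:IOE replicate 1 or 2, and after dropping any 1 repeat from both lines, with limma adjusted p-values reaching 0.186. The other 15 genes of cytokinin synthesis and activation did not pass (list median 0.03), among them LOG6 (-0.30, SE 0.15) and LOG7 (-0.32, SE 0.17). All ERF6:IOE values of LOG6 were below the lower quartile of their arrays, so its fold is approximate.

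No gene of cytokinin breakdown and conjugation passed among 10 (median log2 fold 0.11). The glucosyltransferase genes UGT76C2 (0.53, SE 0.12) and UGT85A1 (0.41, SE 0.10) and the cytokinin oxidase gene CKX6 (0.36, SE 0.11) had non-overlapping lines but limma adjusted p-values of 0.146, 0.196 and 0.371. They were the 3 of the 10 with an unadjusted p under 0.05, against 8.02% of all rows, and the 3 with no overlap, all higher, against 6.93%. Besides AHP6, 13 genes of perception and phosphorelay did not pass (list median 0.02). They include the receptor gene AHK4 (WOL in the name table), at -0.19 (SE 0.10), and the phosphotransfer gene AHP5, at -0.20 (SE 0.11).

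The type-A response regulators are induced by cytokinin and dampen its signal. None of 10 passed in limma (lowest adjusted p 0.275), though 5 had an unadjusted p under 0.05, against 8.02% of all rows. These 5 include ARR7, which was higher in ERF6:IOE. The list's median log2 fold was -0.32, and that of all rows was -0.02. Of the 10, 8 had a negative log2 fold. For 5, not the same 5 genes, all ERF6:IOE arrays were below all GFP:IOE arrays, against 6.52% of all rows. ARR4 had 7.82, 8.16 and 8.05 in ERF6:IOE and 8.31, 8.49 and 8.46 in GFP:IOE (log2 fold -0.41, SE 0.12, limma adjusted p 0.344). ARR6 was similar at -0.40 (SE 0.11), whereas ARR7 was on the other side at 0.31 (SE 0.10, limma adjusted p 0.372). The median stayed between -0.40 and -0.21 in every alternative run.

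Other carriers of nucleobases, nucleosides and cytokinins did not pass in limma, 26 of 26 measured (median log2 fold 0.01). Of the 26, 3 (11.5%) had an unadjusted p under 0.05, against 8.02% of all rows. ENT3 (FUR1 in the name table), an equilibrative nucleoside transporter gene, had 5.72, 5.98 and 6.34 in ERF6:IOE and 5.10, 4.47 and 5.54 in GFP:IOE. These did not overlap, but the spread was wide (log2 fold 0.98, SE 0.28, limma adjusted p 0.318). The ureide permease gene UPS2 had 0.45 (SE 0.14), AT4G05140 had -0.34 (SE 0.09), and the cytokinin exporter gene ABCG14 had 0.01 (SE 0.12). All ERF6:IOE values of AT4G05140 were below the lower quartile of their arrays, so its fold is approximate.

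Genes that recycle or break down purines did not pass in limma either, 18 of 18 measured (median log2 fold 0.0034). Of the 18, 4 had an unadjusted p under 0.05, against 8.02% of all rows. AAH, which encodes an amidohydrolase of the ureide pathway, had the largest value, 0.59 (SE 0.12, limma adjusted p 0.128). The adenine phosphoribosyltransferase genes APT2 and APT5, named for the enzyme that turns adenine and cytokinin bases into nucleotides, had -0.45 (SE 0.12) and -0.39 (SE 0.13).

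Of 7 vitamin B6 genes 1 rose, where 0.698% of all rows did. PDX1.3 (RSR4 in the name table), a synthase gene of vitamin B6 formation, had 11.7, 11.5 and 11.5 in ERF6:IOE and 10.3, 10.4 and 10.2 in GFP:IOE. The lines were far apart relative to their spread, and the log2 fold of 1.28 (SE 0.11, 2.42-fold) had an adjusted p of 0.00281 in limma. Among the alternatives run, the call was lost only after dropping 1 repeat from both lines, with limma adjusted p-values reaching 0.0861. Its paralog PDX1.1 had 0.11 (SE 0.12) and its partner PDX2 had 0.21 (SE 0.10), and neither passed (list median 0.05).

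**Figure D4:**
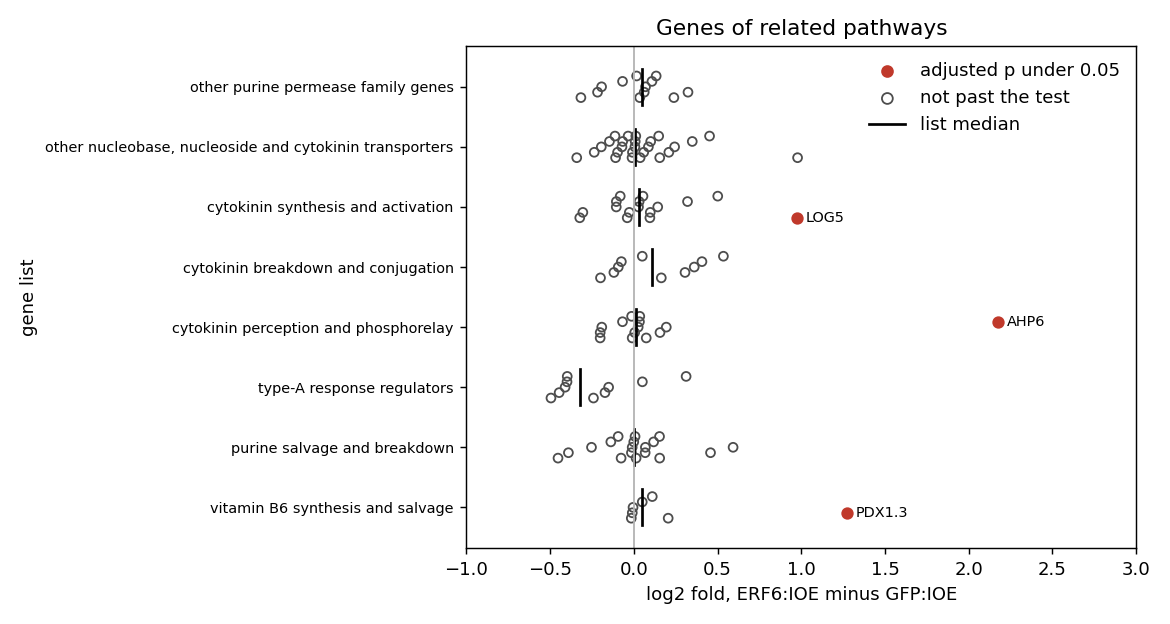
Log2 fold (ERF6:IOE minus GFP:IOE) of each measured gene in 8 lists related to purine permeases, with filled red points past an adjusted p of 0.05 in limma, open points not past it and a black bar at each list's median. Only LOG5 (0.97), AHP6 (2.18) and PDX1.3 (1.28) are filled, and the type-A regulators have the lowest median (-0.32).

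Markers of other tissues were followed in the same arrays. None of the 4 shoot meristem markers passed (log2 folds 0.07 to 0.45), nor any of 4 guard cell and stomatal lineage markers (-0.20 to 0.20), 5 root markers (-0.21 to 0.12) or 3 leaf markers (-0.01 to 0.11), and none of these had an unadjusted p under 0.05 in limma. The summed log2 level of the meristem markers was 17.0 to 18.2 in ERF6:IOE and 16.3 to 17.5 in GFP:IOE, with overlap. The part of tissue makeup in the differences of the purine permease genes was not tested.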

How the data were processed

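The authors deposited log2 expression values of 6 arrays. RMA, limma and build TAIR9 are named per the submitters' processing notes, without version or settings. RMA removes overall shifts between arrays and compresses dim values.

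The difference ERF6:IOE minus GFP:IOE was fitted over all 30237 rows by lmFit and eBayes of limma 3.58.1 under R 4.3.3, with two-sided tests and Benjamini-Hochberg adjustment. The threshold was an adjusted p of 0.05. SE is limma's moderated standard error. Symbols came by locus from a TAIR10.1 name table, which matched 29715 rows. For a listed locus with more than 1 row the brighter one was used. The number of arrays limits the precision. A limma p-value weighs the difference between the lines against the moderated spread between arrays within a line. With 1 line per construct, it does not cover the spread between independent lines of a construct.

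The members and gene lists were chosen with earlier results of these data known. Named by rule were the 10 genes, ERF6, the other family genes, flanking genes, the 3 closest profiles for each of 2 members, called list genes and the 3 genes of each other list with the largest absolute moderated t. ABCG14 was added after its value was seen. No label ties equal repeat numbers to 1 experiment, so the comparison was fitted with no block. Alternatives were a replicate block, level filters, renewed quantile normalization, median centring, a variance trend, array weights and leaving out arrays or repeats.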

Additional observations from a re-analysis of the deposited data

How the results depend on the processing

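The log2 folds of AT4G18205, PUP7, PUP18, AT4G18220, PUP10, PUP8 and PUP14 kept their sign in every alternative that held them. With an array or a repeat left out, AT4G18205 ranged from 2.94 to 3.27, PUP7 from 1.33 to 1.53, PUP18 from 1.33 to 1.85, AT4G18220 from 1.21 to 1.68, PUP14 from 0.26 to 0.69, PUP1 from -0.26 to 0.07 and PUP11 from -0.13 to 0.15. The members past the threshold numbered 1 to 3 with such omissions and 3 to 4 otherwise. Rows called higher were 211, against 45 to 126 with omissions, 143 with the replicate block and up to 277 with the filters. Rows called lower were 8, against 1 to 6 with omissions, 5 with the replicate block, and 14 and 22 above the 30th percentile and the median of level. The filters test fewer rows and the omissions use fewer samples. With the replicate block 0 phosphorelay genes were called, as AHP6 missed the threshold. Above the median of level, AHP6 and LOG5 were no longer tested (0 calls in either list) and AAH passed, 1 call among purine salvage genes. With omissions, calls in the lists of phosphorelay, cytokinin synthesis and vitamin B6 genes ranged from 0 to 1 each.

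Sign changes occurred for genes that did not pass. With array weights PUP5 had -0.0094. With omissions PUP2 ranged from -0.028 to 0.15, PUP3 from -0.23 to 0.058, PUP5 from -0.10 to 0.16, PUP13 from -0.030 to 0.31, PUP19 from -0.047 to 0.20, AT1G57980 from -0.17 to 0.62, AT4G18150 from -0.21 to 0.055 and AT4G18230 from -0.15 to 0.075. The cause was not tested. Signal over background was not analysed here. The replicate block changed no call among the tested genes named here other than those of AHP6, WRKY28, AT4G18250 and AR781, the last of which passed with it.

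Over all rows, deviations from the line mean correlated at 0.19, 0.078 and 0.21 between arrays that share a repeat number, not all above 0.1, so the arrays were not treated as paired. Each of the 6 arrays nevertheless correlated best with its own number in the other line, a hint from the data and not from the labels.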
